A study of Mus musculus with 24 samples.

Results

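The neonatal astrocyte culture is the usual laboratory stand-in for astrocytes of the adult brain, and its transcriptome was set here against that of adult astrocytes frozen straight after isolation. The comparison used the 4 libraries labelled neoAC CellC and the 4 labelled AdAC direct, 8 of the 24 libraries of the series, and covered genes on the autosomes 1 to 19. Of 45108 autosomal genes in the count table, 18914 passed the filter on low counts, out of 19691 genes tested on all chromosomes. The series holds bulk RNA sequencing of mouse neural stem cells, of astrocytes derived from embryonic stem cells (AGES), and of neonatal and adult astrocytes either cultured (CellC) or not (direct), with 4 libraries in each of 6 groups.

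The neoAC CellC cells were taken from C57BL/6J pups at postnatal day 4 to 8, and the AdAC direct cells from C57BL/6J mice aged 100 to 140 days. In both groups the brains of 2 mice were pooled for each isolation, and mice of both sexes were mixed in the study. Astrocytes were drawn out with magnetic beads against ACSA-2, a surface epitope carried by ATP1B2. Neonatal cells then grew for 7 to 10 days in a serum-free astrocyte medium on poly-L-lysine and laminin, whereas adult cells were snap-frozen at once. Neonatal tissue was cerebral tissue stripped of its meninges and was taken apart with a neural tissue kit, while adult brain without olfactory bulb and cerebellum was taken apart with an adult brain kit that adds removal of debris and red blood cells. Age, culture, dissected region and kit therefore cannot be told apart within these 8 libraries. The freshly frozen neonatal group (neoAC direct) shares its age and kit with one group and its freezing with the other, and its values are set beside the comparison where they help. No genotype or drug differed between the groups.

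Astrocytes clear glutamate and GABA from synapses through sodium-driven transporters, turn glutamate into glutamine, buffer potassium and water at their endfeet around vessels, and pass ions and metabolites to one another through gap junctions. They supply the brain with cholesterol-rich lipoprotein particles, hold most of its glycogen, activate thyroid hormone and engulf synapses. In the mouse many of these functions are acquired in the first weeks after birth, as astrocytes stop dividing, and cultured neonatal astrocytes are known for a flat shape and continued division.

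Total counts of the 8 libraries lay between 27904126 and 35440406, so depth was alike in the groups. Libraries of the same group lay close together. On log2 CPM (read counts relative to the library total) over the tested autosomal genes, the mean Euclidean distance was 66.7 between neoAC CellC libraries and 59.03 between AdAC direct libraries, against 233 ± 2.86 (SD, 16 pairs) between the groups. For orientation, neoAC CellC lay 196 from neoAC direct and 187.5 from cultured adult astrocytes (AdAC CellC). All levels below are CPM scaled by the trimmed mean of M values (TMM), and a value after ± is the standard deviation over 4 libraries for a level and the standard error for a log2 fold change. Fold changes are of neoAC CellC over AdAC direct. A gene was called when its edgeR quasi-likelihood p, adjusted over all tested genes, was under 0.05.

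Both groups carried the astrocyte label, though not to the same degree. The 11 astrocyte markers summed to 7823 to 9038 CPM in the neoAC CellC libraries and to 17606 to 18343 CPM in the AdAC direct libraries. Of these 11 genes, 2 were called higher and 7 lower in neoAC CellC (36.7% and 37.4% over all genes). Aldh1l1, a folate enzyme used as a pan-astrocyte marker, read 364, 254, 303 and 292 CPM in neoAC CellC and 277, 293, 282 and 238 CPM in AdAC direct. These ranges overlapped and the difference was not called (log2 fold change 0.15 ± 0.25, edgeR adjusted p = 0.583).

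Other cell types were present to different extents, and these values stand beside every result below. The largest gap was in oligodendrocytes, the myelin-forming glia. Their 10 markers summed to 255 to 344 CPM in neoAC CellC and to 28217 to 31196 CPM in AdAC direct. All 9 autosomal members were called lower in neoAC CellC (37.4% over all genes). Mog, a myelin surface protein, read 0.717, 0.367, 1.11 and 1.05 CPM against 627, 568, 628 and 636 CPM, so the AdAC direct fraction held much oligodendrocyte RNA. The neoAC direct libraries were as poor in it as the cultures, at a mean of 349 CPM, and thus give a fresh astrocyte reference nearly free of it. Markers of oligodendrocyte precursors summed to 396 to 967 CPM in neoAC CellC and 1075 to 1298 CPM in AdAC direct. Within that list Pdgfra, the receptor that defines the precursors, was higher in culture (55.8 ± 12.3 against 2.41 ± 0.297 CPM), whereas Sox10 was lower (9.34 ± 2.09 against 400 ± 49.9 CPM).

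Vascular, fibroblast and ependymal genes also differed. Ependymal markers summed to 1395 to 1765 CPM in neoAC CellC and 1185 to 1360 CPM in AdAC direct. However, 4 of the 6 were called lower in culture (37.4% over all genes), with a median log2 fold change of -1.15. Foxj1 made up most of the cultures' sum, at 1107 to 1397 against 396 to 438 CPM. Fibroblast markers summed to 400 to 670 CPM in culture and 88.7 to 105 CPM in adult cells. All 8 were called higher (36.7% over all genes). Mural markers summed to 311 to 669 and 460 to 495 CPM, but their defining members Kcnj8 and Abcc9 fell to 0.0429 ± 0.0187 and 0.261 ± 0.146 CPM in culture from 8.66 ± 0.987 and 21.4 ± 1.72 CPM, and Acta2, smooth muscle actin, made up most of the cultures' sum. Endothelial markers summed to 87.3 to 137 and 110 to 114 CPM. Of these, 6 of 8 were called lower in culture (37.4% over all genes), among them Cldn5 at 0.0687 ± 0.0612 against 15.1 ± 1.08 CPM. Choroid plexus markers summed to 456 to 1356 and 112 to 317 CPM, mostly from the chromosome 18 gene Ttr. Microglia (41.5 to 58.1 and 63.2 to 70.4 CPM) and neuron markers (112 to 131 and 50.03 to 62.1 CPM) were low in both. Red blood cell globins summed to at most 0.0624 CPM in culture and to 1.88 to 2.41 CPM in adult cells. In bulk RNA, fewer cells of a type and less RNA per cell cannot be told apart. The part of these other cells in the gene differences was not tested.

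**Figure D1:**
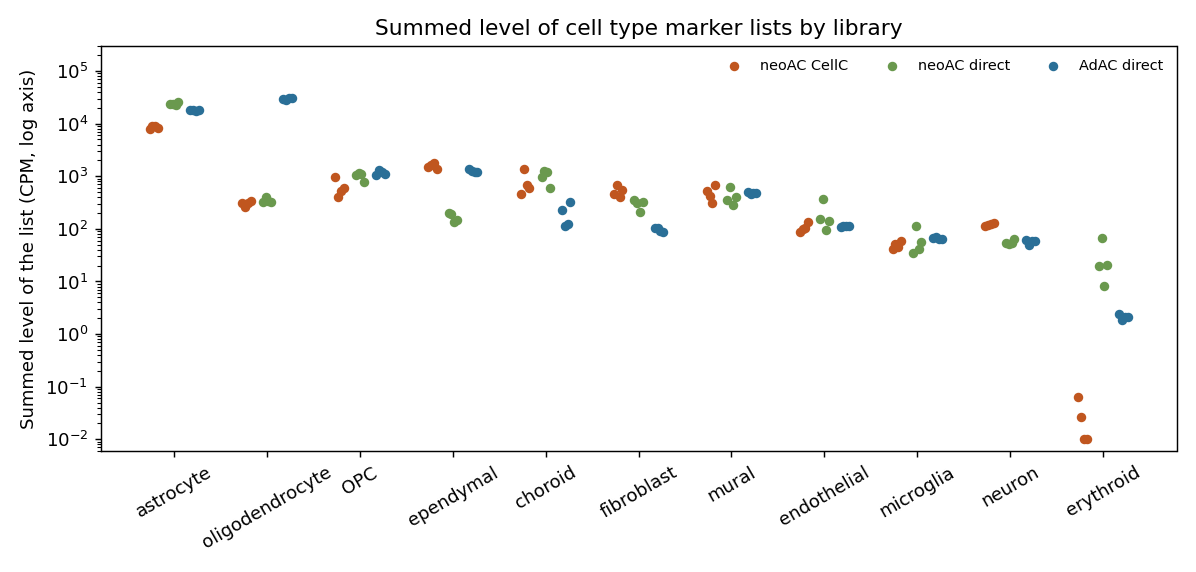
Summed level of 11 cell type marker lists (CPM, log axis) in each library of neoAC CellC, neoAC direct and AdAC direct, with sums under 0.01 CPM drawn at 0.01. The AdAC direct libraries stand at 28217 to 31196 CPM for oligodendrocyte markers, while both neonatal groups lie between 255 and 403.

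Most of the transcriptome differed. Of the 18914 autosomal genes tested, 6934 (36.7%) were called higher and 7067 (37.4%) lower in neoAC CellC, and in 13404 (70.9%) the 4 libraries of one group did not overlap the 4 of the other. With a change of over 2-fold also required, 3660 (19.4%) were higher and 4173 (22.1%) lower. A gene was counted as close when the 95% interval of its fold change lay within 1.5-fold either way, which held for 3538 genes (18.7%), so that a gene could be both called and close. Calls in either direction thus made up 74.0% of all genes, and the counts of each list above and below stand against these shares. The median log2 fold change over all tested autosomal genes was 0.0082. Over 27 lists of genes for astrocyte functions, 350 different autosomal genes were tested, of which 178 were higher, 127 lower and 40 close.

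**Figure D2:**
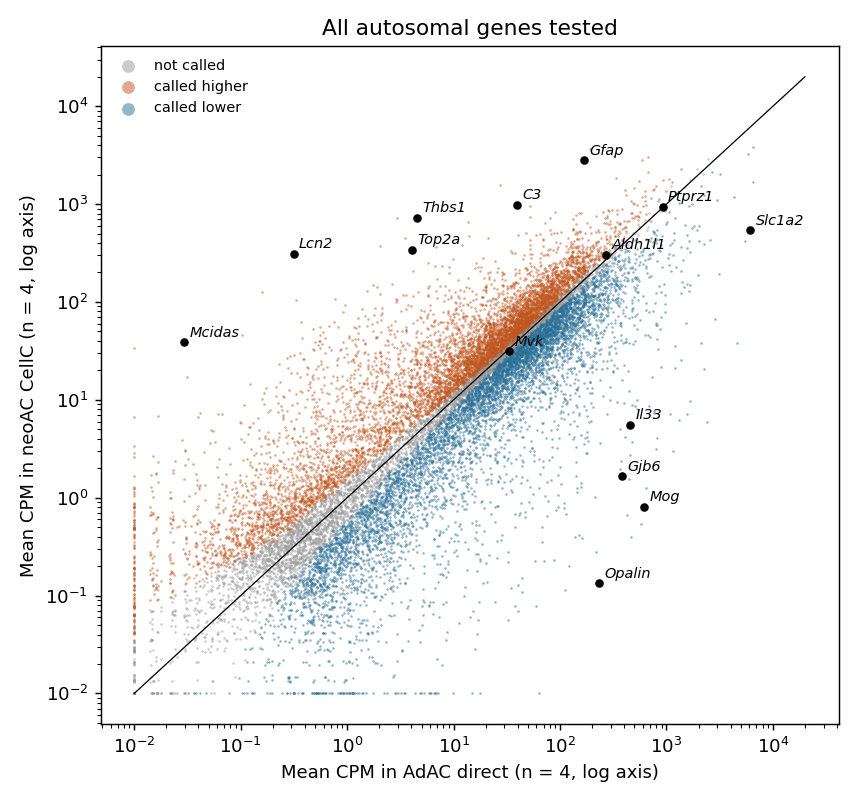
Mean level of every tested autosomal gene in AdAC direct (x axis) and neoAC CellC (y axis), in CPM on log axes with means under 0.01 drawn at 0.01, coloured by the call. Slc1a2, Gjb6 and Il33 lie far below the line of equal levels, Ptprz1, Mvk and Aldh1l1 on or near it, and Gfap, Thbs1 and Top2a far above it.

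Transcripts for the uptake of transmitter glutamate were much lower in the cultured cells. Slc1a2 encodes GLT-1, the main glutamate transporter of the adult forebrain. It read 507, 597, 564 and 497 CPM in neoAC CellC and 6066, 6104, 5955 and 6275 CPM in AdAC direct. The groups were far apart and each was tight, and the level was 11.3-fold lower in culture (log2 fold change -3.49 ± 0.17, edgeR adjusted p = 1.39e-14). These are RNA levels. By western blot, the paper found GLT-1 protein to be stable across its cell types. Glul, the glutamine synthetase that disposes of the glutamate taken up, stood at 475, 369.6, 456 and 363 CPM against 5601, 5523, 5534 and 5403 CPM (log2 fold change -3.73 ± 0.12, edgeR adjusted p = 5.62e-18). The second transporter, Slc1a3 (GLAST), was 2.66-fold lower, at 1110 ± 81.99 against 2956 ± 57.5 CPM (log2 fold change -1.41 ± 0.13, edgeR adjusted p = 7.90e-10).

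In the whole list for glutamate uptake and the glutamine cycle, 7 of 11 genes were lower (37.4% over all genes) and 3 higher (36.7%). The median log2 fold change of the list was -1.35. The carriers Slc25a18, Slc1a4 and Slc7a11, the last of them the cystine-glutamate exchanger, fell by 1.54, 1.35 and 1.599 on the log2 scale. The cycle was not lowered at every step. Slc38a3, which releases glutamine towards neurons, was higher in culture at 1150.4 ± 92.3 against 723 ± 75.6 CPM (log2 fold change 0.67 ± 0.12, edgeR adjusted p = 1.48e-05). Glud1, the mitochondrial glutamate dehydrogenase, was close in level (425, 521, 514 and 461 CPM against 518, 532, 562 and 543 CPM), with a log2 fold change of -0.17 ± 0.08. Fresh neonatal cells read 5676 ± 654 CPM for Slc1a2, 6719 ± 479.9 for Slc1a3 and 3632 ± 172 for Glul, so those transcripts were abundant at that age before culture.

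Genes for the handling of GABA were lower as well. Slc6a11 (GAT-3), the transporter that sets GABA around synapses, read 213, 168, 208 and 167 CPM in culture and 2049.8, 2244, 1909 and 1771 CPM in adult cells, 10.6-fold lower (log2 fold change -3.40 ± 0.16, edgeR adjusted p = 6.51e-15). The glycine transporter Slc6a9 followed with 84.1 ± 11.2 against 472 ± 20.5 CPM, though 38.6% of the exon length of Slc6a9 lies opposite exons of another gene. The GABA-B receptor subunit Gabbr2 showed the widest gap of the list, 5.68, 6.08, 7.702 and 7.78 CPM against 185, 180, 179 and 176 CPM (log2 fold change -4.72 ± 0.12, edgeR adjusted p = 2.04e-19). Gabbr1 and the GABA-A subunits Gabrg1, Gabra2 and Gabrb1 were lower too.

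The breakdown enzymes of this list were close, higher or, for Gldc, lower. The GABA transaminase Abat was close between the groups, with 346 ± 56.3 against 357 ± 15.8 CPM and a log2 fold change of -0.04 ± 0.14. Aldh5a1, the next enzyme of that route, and Amt and Gcsh of the glycine cleavage system were higher in culture, by 0.82, 0.80 and 1.13 on the log2 scale. Gldc, the glycine decarboxylase, was called lower but its whole interval lay within 1.5-fold. Over the list, 9 of 13 genes were lower (37.4% over all genes) and 3 higher (36.7%), with a median of -1.53.

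Gap junctions differed by partner. Gjb6 (connexin 30), a connexin that appears in astrocytes after birth, read 1.403, 1.83, 2.08 and 1.27 CPM in neoAC CellC and 446, 342, 351 and 385 CPM in AdAC direct. This was a 230-fold difference (log2 fold change -7.85 ± 0.21, edgeR adjusted p = 8.53e-19). Gjb2 (connexin 26) stood at 1.85 ± 0.776 against 19.02 ± 2.18 CPM. Gja1 (connexin 43), which astrocytes carry from early on, was lower by a smaller factor, 505, 665, 652 and 627 CPM against 1537, 1453, 1442 and 1529 CPM (log2 fold change -1.28 ± 0.27, edgeR adjusted p = 2.39e-04). Per kilobase of exon, Gja1 stood at 59.7 and 145 RPKM in the 2 groups and Gjb6 at 0.616 and 142 RPKM. In fresh neonatal cells Gjb6 was at 23.4 ± 6.43 CPM, between the compared groups, and Gja1 at 1358 ± 149 CPM, near the adult level.

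The sodium gradient that drives this uptake is held by the Na,K-ATPase, whose beta subunits split between the groups. Atp1b2, the carrier of the epitope used for sorting, read 1079, 1213, 1381 and 1296 CPM in culture and 2368, 2232, 2131 and 2207 CPM in adult cells (log2 fold change -0.85 ± 0.14, edgeR adjusted p = 7.75e-06), and Atp1b1 went the other way at 321 ± 20.4 against 115 ± 7.75 CPM. Atp1b3 was lower, at 107 ± 3.903 against 307 ± 25.8 CPM. Fxyd1, a regulator of the pump, was close (126 ± 21.1 against 108 ± 15.3 CPM) and Fxyd6 higher (62.7 ± 7.95 against 7.96 ± 0.783 CPM). Car2, a carbonic anhydrase that oligodendrocytes also make, was 33.9-fold lower at 35.4 ± 8.95 against 1198 ± 27.5 CPM. Its level in fresh neonatal cells was 328 ± 24.4 CPM. In all, 8 of 13 genes were lower (37.4% over all genes) and 4 higher (36.7%).

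Endfoot genes gave a mixed picture, with channels and anchors at, above and below the adult level. Kcnj10 (Kir4.1), the potassium channel of endfeet, read 1782, 1392, 1482 and 1433 CPM in culture and 1132, 1103, 1046 and 1148 CPM in adult cells. Every culture library lay above every adult one, and the difference lay at the threshold without being called (log2 fold change 0.46 ± 0.21, edgeR adjusted p = 0.0557). It was called with DESeq2 size factors (0.48, edgeR adjusted p = 0.0462) and with scaling factors from autosomal genes only (0.48, edgeR adjusted p = 0.0451), also with all 6 groups in the fit. With the 8 libraries alone it was called, at a log2 fold change of 0.48 ± 0.08 and an edgeR adjusted p of 1.44e-04. Its partner Kcnj16 was lower, 35.6 ± 4.27 against 102 ± 9.98 CPM. Mlc1, mutated in megalencephalic leukoencephalopathy, was higher (1387 ± 85.1 against 755 ± 34.01 CPM) and its binding partner Hepacam lower (429.8 ± 26.5 against 795 ± 43.6 CPM). The water channel Aqp4 was higher in culture with 1 library, the first, inside the adult range (614, 1144, 967 and 1081 CPM against 585, 579.6, 539 and 690.4 CPM). The other 3 culture libraries lay above the adult range (log2 fold change 0.67 ± 0.20, edgeR adjusted p = 0.00535).

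Anchors of these channels were close or higher. Lama2 (laminin alpha 2) and Agrn (agrin) were close, at log2 fold changes of 0.03 ± 0.11 and -0.06 ± 0.12. Dag1 (dystroglycan) was higher, 795 ± 9.66 against 346 ± 14.1 CPM. The list gave 6 of 14 genes lower (37.4% over all genes), 4 higher (36.7%) and 3 close (18.7%), with a median of -0.02.

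Receptors split sharply by gene. The libraries of the groups did not overlap for any of the 14 genes of this list, against 70.9% of all genes. Grm3, the adult glutamate receptor of astrocytes, read 14.6, 13.9, 15.3 and 10.5 CPM in neoAC CellC and 282, 287, 287 and 311 CPM in AdAC direct (log2 fold change -4.43 ± 0.13, edgeR adjusted p = 1.39e-18). Grm5, the metabotropic receptor of immature astrocytes, went the other way with 38.98, 14.96, 14.9 and 23.9 CPM against 1.63, 2.44, 1.87 and 2.31 CPM (log2 fold change 3.48 ± 0.28, edgeR adjusted p = 1.47e-10). In fresh neonatal cells Grm5 stood at 268 ± 14.7 CPM and Grm3 at 513 ± 9.79 CPM, both above either compared group. Ntsr2, a neurotensin receptor of mature astrocytes, was lower (61.4 ± 18.4 against 795 ± 80.3 CPM), as were S1pr1, a sphingosine phosphate receptor (152 ± 16.1 against 947 ± 53.4 CPM), and the orphan receptor Gpr37l1 (479.7 ± 37.9 against 1544 ± 120.5 CPM).

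Receptors for purines, thrombin and noradrenaline were mostly higher. P2ry1, an ADP receptor with 23.1% of its exon length opposite another gene, stood at 34.8 ± 0.615 against 6.55 ± 0.920 CPM, and F2r, the thrombin receptor, at 66.1 ± 12.7 against 9.82 ± 0.506 CPM. Adra1b, Adra2a and Adrb1 were higher by 1.04, 1.10 and 0.93 on the log2 scale, whereas Adra1a fell by 1.31. Of the store channels, Itpr2, the main astrocyte isoform, was lower (45.98 ± 5.95 against 93.6 ± 1.49 CPM) and Itpr1 higher (129 ± 9.77 against 72.95 ± 5.03 CPM). The endothelin receptor Ednrb was not called (log2 fold change 0.34 ± 0.28), though it was with the 8 libraries alone (edgeR adjusted p = 0.00127). In all, 7 of 14 were higher (36.7% over all genes) and 6 lower (37.4%).

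Genes of energy metabolism differed in both directions or were close. Pygm, the muscle-type glycogen phosphorylase, read 3.59, 3.64, 5.57 and 3.79 CPM in culture and 156, 136, 131 and 124 CPM in adult cells, 32.9-fold lower (log2 fold change -5.04 ± 0.22, edgeR adjusted p = 9.05e-15). Pygb, the brain-type enzyme for the same reaction, was close at 686 ± 83.1 against 624 ± 18.3 CPM, as was the glycogen synthase Gys1 (61.7 ± 3.44 against 58.8 ± 3.02 CPM). Gbe1, the branching enzyme, was higher (71.6 ± 9.097 against 13.01 ± 1.03 CPM).

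For glucose itself, the transporter Slc2a1 was lower in culture (178 ± 18.6 against 509 ± 15.6 CPM), and Aldoc, the brain aldolase used as an astrocyte marker, was 5.76-fold lower (384, 378, 474 and 334 CPM against 2407, 2214, 2295 and 2122 CPM). The phosphofructokinases Pfkm and Pfkp were close, Pfkm being also called lower (log2 fold change -0.25 ± 0.08, edgeR adjusted p = 0.00962). Pfkm was not called with scaling by library size only (-0.088) or without neoAC CellC replicate 4 (-0.20). Hk2, Ldha and the lactate carrier Slc16a1 were higher, at 31.2 ± 8.099 against 4.102 ± 0.897, 251 ± 45.4 against 86.4 ± 6.64 and 395 ± 49.9 against 126 ± 9.54 CPM. Of 20 genes tested in this list, 8 were higher (36.7% over all genes), 7 lower (37.4%), Pfkm among them, and 5 close (18.7%).

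Thyroid hormone is taken up by astrocytes and made active there for neurons. The importer Slco1c1 read 50.5, 36.3, 41.4 and 33.7 CPM in culture and 348, 405, 341 and 391 CPM in adult cells (log2 fold change -3.20 ± 0.11, edgeR adjusted p = 2.15e-17), and Dio2, the activating deiodinase, read 22.4 ± 3.04 against 165 ± 11.6 CPM (log2 fold change -2.88 ± 0.13, edgeR adjusted p = 1.69e-15). Of the receptors, Thra was lower by 0.41 and Thrb close (log2 fold change -0.22 ± 0.14). None of the 7 genes of the list was higher (36.7% over all genes), and 6 were lower (37.4%). Both Slco1c1 (389 ± 49.7 CPM) and Dio2 (395 ± 60.3 CPM) stood at or above their adult level in fresh neonatal cells.

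Genes for lipoprotein particles and sterol export were lower in most cases. Abcg1, an exporter of cholesterol to lipoproteins, read 5.58, 6.39, 7.397 and 6.01 CPM against 110, 108, 109 and 113 CPM (log2 fold change -4.11 ± 0.17, edgeR adjusted p = 5.05e-16), and was already low in fresh neonatal cells (10.9 ± 2.502 CPM). Its relative Abca1 was higher in culture (646 ± 28.8 against 259 ± 16.97 CPM). Apoe, the main lipoprotein of the brain, was lower by a modest factor (3286 ± 462 against 5781 ± 794 CPM), as was Clu. The uptake receptor Lrp1 was close (973, 829, 875 and 930.2 CPM against 855, 1018, 882 and 785 CPM; log2 fold change 0.03 ± 0.13). This list had 9 of 11 genes lower (37.4% over all genes) and 1 higher (36.7%). Of the 9, 2 were lower by over 2-fold (22.1% over all genes).

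Along the cholesterol pathway the genes had no common direction. The early enzymes Mvk and Idi1 were close, with 35.6, 26.98, 32.5 and 31.1 CPM in neoAC CellC and 31.3, 35.6, 35.7 and 30.9 CPM in AdAC direct for Mvk (log2 fold change -0.08 ± 0.10). Hmgcs1, which acts before them, and the demethylase Cyp51 further down were higher (382 ± 40.9 against 216 ± 20.1 and 112 ± 15.3 against 78.2 ± 3.31 CPM). The late reductases Tm7sf2 and Dhcr7 were lower (10.8 ± 1.67 against 46.2 ± 2.93 and 42.9 ± 4.06 against 118 ± 8.06 CPM), together with Msmo1 and Lss. Fresh neonatal cells stood above both groups for these genes, with Mvk at 108 ± 17.9, Hmgcs1 at 1548 ± 112 and Dhcr7 at 223 ± 16.1 CPM. Over the list 10 of 17 genes were lower (37.4% over all genes), 4 higher (36.7%) and 3 close (18.7%). Myelinating cells make cholesterol as well, and the part of oligodendrocyte RNA in these levels was not tested.

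Fatty acid metabolism had the most close genes of any list, 6 of 18 (18.7% over all genes). Acsbg1, an astrocyte acyl-CoA synthetase, the desaturases Fads1 and Scd1 and the carnitine acyltransferase Cpt1a were close, at 675 ± 60.4 against 722 ± 49.2, 379 ± 11.2 against 436 ± 6.995, 405 ± 39.7 against 363 ± 20.2 and 207 ± 17.6 against 171 ± 4.01 CPM. In all, 8 genes were lower (37.4% over all genes) and 6 higher (36.7%), where a gene can be both close and called, as Cpt1a was. Fabp7, the fatty acid binding protein of radial glia, stood out with 966, 574, 627 and 709.7 CPM against 79.7, 70.9, 71.9 and 103 CPM (log2 fold change 3.15 ± 0.20, edgeR adjusted p = 2.92e-12).

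Among secreted factors that act on synapses the members differed in opposite directions. Thbs1 (thrombospondin 1), which promotes synapse formation during development, read 587, 753, 678 and 883 CPM in culture and 5.25, 3.397, 4.34 and 5.24 CPM in adult cells, 159-fold higher (log2 fold change 7.31 ± 0.18, edgeR adjusted p = 6.29e-19). Thbs2 and Thbs3 were higher by 0.99 and 0.62 on the log2 scale, while Thbs4, the adult thrombospondin, was lower (0.843 ± 0.343 against 8.32 ± 1.47 CPM). The antagonistic pair Sparc and Sparcl1 (hevin) moved apart, Sparc at 3031 ± 216 against 667 ± 98.6 CPM and Sparcl1 at 1178 ± 131 against 4268 ± 353 CPM. Il33, an alarmin that instructs microglia to engulf synapses, read 7.11, 5.76, 4.54 and 4.79 CPM against 443, 399, 456 and 512 CPM (log2 fold change -6.35 ± 0.22, edgeR adjusted p = 5.40e-16). Cultured adult cells held 191 ± 57.4 CPM. Oligodendrocytes also make Il33, and their part in these levels was not tested. The glypican Gpc5 was lower (9.15 ± 2.52 against 113 ± 2.59 CPM) and Gpc6 higher (107 ± 17.5 against 46.9 ± 2.24 CPM). Of 11 genes, 6 were higher (36.7% over all genes) and 4 lower (37.4%).

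Astrocytes engulf synapses through MEGF10 and MERTK. Mertk read 9.76, 9.32, 11.1 and 9.72 CPM in neoAC CellC and 319, 269.6, 299 and 285 CPM in AdAC direct, 29.4-fold lower (log2 fold change -4.88 ± 0.11, edgeR adjusted p = 2.43e-20). Its bridge to dying membranes Mfge8 was lower (123 ± 9.802 against 1379.6 ± 152 CPM), as were Abca7 and the chromosome 18 gene Megf10 (115 ± 7.07 against 282 ± 18.7 CPM). The related receptor Axl was close (172 ± 15.1 against 148 ± 10.4 CPM; log2 fold change 0.22 ± 0.10), and the shared ligand Gas6 was higher (566 ± 41.9 against 302 ± 18.97 CPM). The adaptor Gulp1 and the integrin Itgb5 were higher too. The list gave 4 of 11 lower (37.4% over all genes), 3 higher (36.7%) and 3 close (18.7%). With library size only, with the 8 libraries alone or without neoAC CellC replicate 3, 5 were higher.

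**Figure D3:**
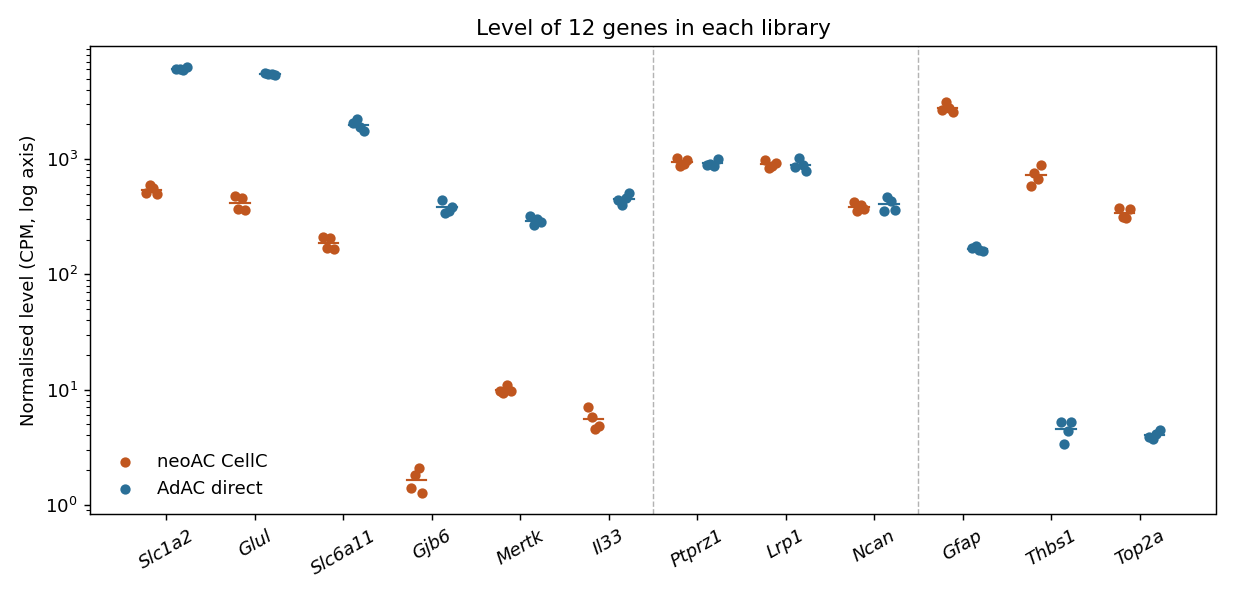
Level of 12 genes (CPM, log axis) in each of the 4 neoAC CellC and 4 AdAC direct libraries, with a bar at the group mean. Slc1a2 to Il33 are lower in every culture library, Ptprz1, Lrp1 and Ncan overlap between the groups, and Gfap, Thbs1 and Top2a are higher in every culture library.

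Transcription factors of astrocyte identity and maturation differed in both directions. Sox9 read 224, 235, 260.1 and 221 CPM in culture and 247, 302, 255 and 215 CPM in adult cells (log2 fold change -0.12 ± 0.12), and Sox2 was close as well (log2 fold change -0.15 ± 0.11). The gliogenic factors Nfia, Nfib and Nfix were higher by 0.40, 0.97 and 0.47 on the log2 scale, the first of them within 1.5-fold. Hes5, a Notch target, read 0.873, 0.891, 0.7204 and 0.7202 CPM against 102, 122, 91.02 and 66.5 CPM (log2 fold change -6.89 ± 0.39, edgeR adjusted p = 1.20e-13), with 31.8% of its exon length opposite another gene's exons. Klf15, Dbx2 and Rorb fell by 1.78, 1.51 and 1.12 on the log2 scale, and Hes1 by 1.06. The targets of BMP signalling Id1 and Id3 were higher (94.1 ± 14.2 against 18.5 ± 1.58 and 224 ± 33.6 against 80.7 ± 12.1 CPM). In the list, 7 of 19 were higher (36.7% over all genes), 8 lower (37.4%) and 4 close (18.7%). The counts of this list thus lay near the shares over all genes. Compared with fresh neonatal cells, 16 of the 19 were lower in culture (31.3% over all genes), with a median log2 fold change of -1.14.

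Brain matrix genes differed in both directions, with a pair of members close. Ptprz1, a receptor phosphatase whose ectodomain is a matrix proteoglycan, read 1013, 864, 901 and 978 CPM in neoAC CellC and 882, 915, 871 and 1003 CPM in AdAC direct (log2 fold change 0.03 ± 0.14). Ncan (neurocan) read 422, 352, 396 and 372 CPM against 354, 469, 434 and 365 CPM (log2 fold change -0.07 ± 0.16). Fresh neonatal cells held 10787 ± 1297 CPM of Ptprz1 and 9310.1 ± 1085 CPM of Ncan, more than 10 times either group, so both compared groups lay far below the fresh neonatal level. Bcan (brevican) and Cspg5 were lower in culture (433 ± 60.4 against 2568 ± 351 and 123 ± 23.1 against 804 ± 85.3 CPM). Tenascin C (Tnc) was higher (434, 373, 306 and 431 CPM against 11.1, 12.3, 12.5 and 12.2 CPM), as was fibronectin (Fn1, 479 ± 61.2 against 40.3 ± 4.83 CPM). Of 11 genes, 6 were higher (36.7% over all genes), 3 lower (37.4%) and 2 close (18.7%).

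Collagens were higher almost throughout. Of 14 genes, 13 were called higher (36.7% over all genes) and the remaining gene, Col16a1, was not called (log2 fold change -0.47 ± 0.27). The list median was 3.58. Col11a1 read 362, 338, 347 and 397 CPM in culture and 6.07, 6.36, 5.73 and 9.36 CPM in adult cells (log2 fold change 5.71 ± 0.28, edgeR adjusted p = 5.11e-13), and the basement membrane chain Col4a1 stood at 639.7 ± 49.8 against 72.98 ± 3.11 CPM. The fibrillar chains Col1a1 and Col3a1, which are also fibroblast markers, stood at 191 ± 38.03 against 38.2 ± 7.09 and 116 ± 33.1 against 3.32 ± 0.244 CPM. All 8 fibroblast markers were called higher in culture. The 5 outside the collagens had means from 5.07 to 16.96 CPM in culture and from 0.972 to 6.64 CPM in adult cells, with Lum at 12.8 ± 3.67 against 0.972 ± 0.378 CPM (log2 fold change 3.72 ± 0.33) and Dcn at 16.96 ± 6.07 against 6.64 ± 1.03 CPM. The part of fibroblast RNA in the collagen values was not tested.

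Intermediate filament genes were much more abundant in culture. Gfap, the classic astrocyte filament, read 2653, 3142, 2805 and 2575 CPM in neoAC CellC and 170.4, 175, 162 and 160.5 CPM in AdAC direct, 16.7-fold higher (log2 fold change 4.06 ± 0.14, edgeR adjusted p = 2.02e-17). Vim (vimentin) stood at 3102 ± 166 against 325 ± 16.5 CPM and Nes (nestin) at 964 ± 211 against 52.1 ± 3.01 CPM. Synm (synemin) went the other way, 30.7 ± 3.16 against 182 ± 7.298 CPM. S100b, a calcium-binding protein of mature astrocytes and oligodendrocytes, was lower (81.1, 94.1, 96.1 and 82.7 CPM against 272, 243, 260.4 and 261 CPM; log2 fold change -1.55 ± 0.20, edgeR adjusted p = 5.81e-07), and in fresh neonatal cells it read 78.9 ± 11.1 CPM, near the cultured level. S100a6, S100a10 and S100a11 were higher by 2.04, 2.76 and 2.68 on the log2 scale. Of 12 genes 8 were higher (36.7% over all genes) and 4 lower (37.4%).

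Genes used to describe reactive astrocytes were mostly higher in culture. Of the pan-reactive list, 10 of 12 were higher (36.7% over all genes) and 1 lower (37.4%), with a median of 3.19. Lcn2 (lipocalin 2) read 531, 302, 199 and 214 CPM in culture and 0.3902, 0.463, 0.178 and 0.226 CPM in adult cells (log2 fold change 9.96 ± 1.40, edgeR adjusted p = 6.41e-08). Steap4, a metalloreductase, read 82.3, 80.7, 39.9 and 48.6 CPM against 0.284, 0.216, 0.505 and 0.479 CPM (log2 fold change 7.37 ± 0.44, edgeR adjusted p = 2.81e-14), and the hyaluronan receptor Cd44 and the oncostatin receptor Osmr were higher by 3.60 and 3.12. Hspb1 was not called (log2 fold change -0.29 ± 0.17) and Aspg was lower (log2 fold change -0.96 ± 0.21).

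The neuroinflammatory A1 list gave 9 of 12 genes higher (36.7% over all genes) and 2 lower (37.4%), with a median of 2.07. The A2 list, first drawn up after ischaemia, gave 10 of 11 higher and none lower against the same shares (median 2.76). C3, the complement component taken as the lead A1 gene, read 1085, 1276, 761 and 816 CPM in neoAC CellC and 37.7, 40.1, 43.7 and 34.99 CPM in AdAC direct (log2 fold change 4.65 ± 0.27, edgeR adjusted p = 5.33e-12). Of the other A1 genes, Fbln5 stood at 227 ± 43.3 against 16.8 ± 5.05 CPM and the immunoproteasome subunit Psmb8 at 14.99 ± 3.33 against 2.401 ± 0.439 CPM. Amigo2 was lower (5.44 ± 0.295 against 19.7 ± 2.47 CPM). Of the A2 genes, B3gnt5 read 38.4, 39.3, 34.7 and 42.3 CPM against 0.568, 0.401, 0.356 and 0.677 CPM (log2 fold change 6.26 ± 0.24, edgeR adjusted p = 6.32e-18) and Emp1 129.5 ± 17.7 against 14.9 ± 3.11 CPM. Genes of both labels were thus high in the same cultures. Fresh neonatal cells, isolated with the same kit, held 1.29 ± 0.106 CPM of C3 and 0.410 ± 0.0384 CPM of Lcn2.

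Immediate early genes, which respond within minutes to dissociation and handling, were listed together with the heat shock genes Hspa1a and Hspa1b. Of the 17 genes, 12 were lower in culture than in adult cells (37.4% over all genes) and 2 higher (36.7%). Both heat shock genes were among the lower ones. These are near-identical copies, so the split of reads between them is uncertain. Fos read 64.5, 57.5, 42.6 and 49.4 CPM against 468, 698, 511 and 437 CPM (log2 fold change -3.30 ± 0.31, edgeR adjusted p = 1.23e-08) and Fosb 3.58 ± 0.503 against 168 ± 49.9 CPM. Fresh neonatal cells stood far above both, at 4053 ± 566 CPM for Fos and 1380.2 ± 303 CPM for Nr4a1, against 62.6, 84.96, 70.5 and 60.8 CPM for Nr4a1 in AdAC direct. The part of tissue handling in the direct groups was not tested.

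Transcripts of mitosis and DNA replication were higher throughout in culture. All 19 mitosis genes and all 16 DNA replication genes were called higher in neoAC CellC (36.7% over all genes). The libraries of the groups overlapped for none of them, and 70.9% of all genes had no such overlap either. The list medians were 5.12 and 2.64. Mki67, the proliferation antigen, read 248, 173, 167 and 231 CPM in culture and 3.795, 3.52, 4.28 and 4.93 CPM in adult cells (log2 fold change 5.63 ± 0.17, edgeR adjusted p = 1.94e-18). Cdk1, the kinase that starts mitosis, read 125, 97.3, 93.3 and 112 CPM against 0.674, 0.834, 0.861 and 0.733 CPM, 137-fold higher, and Top2a, the topoisomerase that untangles sister chromatids, 376, 316, 309 and 366 CPM against 3.902, 3.74, 4.13 and 4.43 CPM, 84.3-fold higher. Replication genes differed less, from 0.55 for Mcm4 to 5.09 for Ccne2 on the log2 scale.

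Activators and inhibitors of the cycle were both higher. Ccnd1 (cyclin D1) read 876, 322, 271 and 423 CPM against 12.2, 14.2, 14.2 and 14.8 CPM (log2 fold change 5.09 ± 0.36, edgeR adjusted p = 3.64e-10), with 23.4% of its exon length opposite another gene's exons, and Ccnd2 stood at 439.7 ± 136 against 69.3 ± 1.77 CPM. The first neoAC CellC library held at least 2 times the Ccnd1 of any other and was also highest of the 4 for Mki67, Top2a and Cdk1. The inhibitor Cdkn1a (p21) was higher too (174 ± 12.5 against 19.5 ± 2.78 CPM), while Cdkn1b (p27) was close (87.6 ± 4.43 against 90.9 ± 4.08 CPM). Of 9 genes 8 were higher (36.7% over all genes).

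Since the mitosis genes moved together, their promoters were read for a pair of motifs known from cell cycle promoters, the cell cycle genes homology region (CHR, letters TTTGAA) and the CCAAT box (letters CCAAT), on both strands of the 250 bases before the start of each gene in RefSeq (GRCm38.p6). Both motifs occurred in 6 of the 15 mitosis genes found by symbol (40.0%), in 1 of 13 replication genes (7.69%) and in 3.96% of the promoters of 12648 tested autosomal genes. A CCAAT box alone occurred in 13 of 15, 8 of 13 and 35.5%. The promoters of the pair of mitosis genes with the largest fold changes are shown 5′ to 3′ in the gene's direction, with every match to either motif, on either strand, in capitals. Cdk1 lies on the minus strand at chr10:69352913-69353162 and Top2a on the minus strand at chr11:99024190-99024439.
Cdk1: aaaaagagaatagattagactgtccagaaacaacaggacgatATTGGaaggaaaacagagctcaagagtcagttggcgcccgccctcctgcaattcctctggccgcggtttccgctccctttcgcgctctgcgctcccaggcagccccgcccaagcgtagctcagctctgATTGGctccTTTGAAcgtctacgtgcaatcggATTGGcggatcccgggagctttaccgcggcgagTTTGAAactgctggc
Top2a: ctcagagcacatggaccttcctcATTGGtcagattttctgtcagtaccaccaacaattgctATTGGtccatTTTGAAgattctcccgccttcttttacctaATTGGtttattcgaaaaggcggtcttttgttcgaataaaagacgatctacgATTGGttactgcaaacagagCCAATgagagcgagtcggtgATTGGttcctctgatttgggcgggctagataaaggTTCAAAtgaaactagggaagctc
The Cdk1 window held 2 matches to TTTGAA, the nearer of them 15 to 10 bases before the start, and 3 to CCAAT. The Top2a window held 2 and 6, and no match to one motif overlapped a match to the other. A match is a description of the letters and no evidence of binding.

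Imprinted growth genes, which decline after birth, were mostly higher in culture, 8 of 11 (36.7% over all genes) with 2 lower (37.4%). Their summed level was lower in culture, at 991 ± 20.4 against 1407.5 ± 63.4 CPM. The list median was 0.29 from AdAC direct to neoAC direct and -0.33 from neoAC direct to neoAC CellC. H19, a long RNA of fetal tissue, read 12.8, 11.03, 10.8 and 18.1 CPM in neoAC CellC and 0.248, 0.124, 0.149 and 0.169 CPM in AdAC direct (log2 fold change 6.25 ± 0.56, edgeR adjusted p = 7.15e-13), and Dlk1 read 39.3 ± 6.31 against 4.59 ± 1.08 CPM. Fresh neonatal cells held more H19 (52.4 ± 8.001 CPM) but less Dlk1 (3.18 ± 0.668 CPM) than the cultures. Nnat and Peg3 were lower (229.7 ± 21.7 against 903 ± 60.2 and 63.01 ± 3.69 against 158 ± 1.91 CPM).

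Antioxidant and metal-binding genes were higher in 12 of 13 cases (36.7% over all genes). Hmox1 (haem oxygenase 1) read 147, 125, 130.4 and 125 CPM in culture and 8.73, 9.39, 9.42 and 9.05 CPM in adult cells (log2 fold change 3.85 ± 0.19, edgeR adjusted p = 3.49e-14), and the thioredoxin reductase Txnrd1 read 435 ± 23.98 against 52.3 ± 0.372 CPM. Mt1 and Mt2, the metallothioneins that bind zinc and copper, stood at 1741 ± 238 against 553 ± 78.6 and 1859 ± 238 against 335 ± 36.7 CPM, with 73.5% of the exon length of Mt2 opposite exons of another gene. Gstm5, a glutathione transferase, was the exception (78.4 ± 5.26 against 283 ± 25.8 CPM).

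Metallothionein genes are switched on through metal response elements, and as Mt1 and Mt2 moved together their upstream sequence is shown. The core was searched only in the form TGCACNC, on both strands of the 250 bases before the start. A form with G in place of the A was not searched and is unmarked below. TGCACNC occurred in 10.7% of the promoters of tested autosomal genes, and in those of Mt1 and Mt2. It did not occur in that of Mt3, which was also higher (log2 fold change 1.59 ± 0.15). Mt1 lies on the plus strand at chr8:94178839-94179088 and Mt2 on the plus strand at chr8:94172368-94172617 (RefSeq, GRCm38.p6), with matches to TGCACNC or to its complement GNGTGCA in capitals.
Mt1: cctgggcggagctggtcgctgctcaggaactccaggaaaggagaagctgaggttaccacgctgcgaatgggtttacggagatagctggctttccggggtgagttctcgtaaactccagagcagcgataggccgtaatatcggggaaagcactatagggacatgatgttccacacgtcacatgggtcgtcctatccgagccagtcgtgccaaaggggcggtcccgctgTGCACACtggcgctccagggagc
Mt2: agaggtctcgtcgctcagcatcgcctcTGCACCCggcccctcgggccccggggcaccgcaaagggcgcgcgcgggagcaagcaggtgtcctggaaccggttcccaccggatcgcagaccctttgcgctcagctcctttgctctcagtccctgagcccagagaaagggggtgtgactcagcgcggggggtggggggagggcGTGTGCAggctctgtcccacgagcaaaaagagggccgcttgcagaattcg
The match in Mt1 lay 23 to 17 bases before the start, and those in Mt2 lay 223 to 217 and 50 to 44 bases before it.

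Genes of motile cilia differed in both directions between the groups. Ependymal cells, which line the ventricles, carry such cilia and astrocytes do not. The axoneme genes Ccdc40, Tekt1 and Spag6l were close, at 107 ± 12.7 against 106 ± 5.77, 69.6 ± 10.7 against 61.5 ± 5.68 and 87.6 ± 6.58 against 75.1 ± 6.26 CPM. The dynein chains Dnah5, Dnah9 and Dnah11 were lower in culture, by 1.02, 0.81 and 1.49 on the log2 scale. Of 15 genes, 7 were lower (37.4% over all genes), 4 higher (36.7%) and 3 close (18.7%). The regulators at the head of the programme were higher. Foxj1, which commits cells to motile cilia, read 1205, 1254, 1397 and 1107 CPM in neoAC CellC and 426, 438, 396 and 402 CPM in AdAC direct (log2 fold change 1.58 ± 0.14, edgeR adjusted p = 6.37e-10). Mcidas, which starts the amplification of centrioles before it, read 32.8, 42.2, 44.7 and 36.4 CPM against counts of at most 3 in every AdAC direct library, at least 419-fold higher. Compared with fresh neonatal cells, all 15 genes of the list were higher in culture (34.6% over all genes), from 1.47 for Dnaic1 to 3.57 for Rsph1 on the log2 scale. Foxj1, which is also an ependymal marker, had 115 ± 23.3 CPM in neoAC direct.

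Ranked by fold change rather than by list, the extremes were of mixed kinds. The protein-coding genes with the highest ratio, among those with at least 10 CPM in culture, included Cdc20b, Mcidas, Lcn2, Glycam1, Npas1, A730049H05Rik, Igfbp3, Ccn5 and Steap4. A730049H05Rik has 36.9% of its exon length opposite another gene. Cdc20b, which acts in centriole amplification like Mcidas, read 28.8, 36.6, 38.9 and 31.6 CPM in culture and at most 3 counts in every adult library, at least 365-fold higher. Npas1, a transcription factor known from interneurons, was likewise at or under 3 counts in every adult library and at least 184-fold higher. Igfbp3, a binding protein of insulin-like growth factors, read 965, 602, 547 and 787 CPM against 3.76, 2.32, 2.495 and 3.24 CPM. In fresh neonatal cells the 9 genes named ranged from 0.228 ± 0.102 CPM for A730049H05Rik to 13.5 ± 1.06 CPM for Igfbp3.

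The 10 genes with the lowest ratio, among those with at least 10 CPM in adult cells, were Opalin, Hapln2, Ermn, Evi2a, Galnt6, Mog, Klk6, Fa2h, Cyp2j12 and Tmem88b. Opalin, Ermn and Mog are oligodendrocyte markers of the marker list, and Fa2h makes myelin lipid. All 10 were under 2 CPM in neoAC CellC and at most 1.13 CPM in fresh neonatal cells, and the log2 fold changes ran from -10.74 to -9.02. The oligodendrocyte marker sums given above include Opalin, Ermn and Mog and so are not independent of these genes. The part of oligodendrocyte RNA in the 10 genes was not tested.

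Close genes of the function lists were led by level by Ptprz1, Lrp1, Acsbg1, Pygb, Glud1, Fads1, Agrn, Ncan, Scd1 and Pfkm. Their mean levels lay between 347 ± 25.1 CPM for Pfkm and 939 ± 68.6 CPM for Ptprz1 in culture, and their log2 fold changes between -0.25 and 0.16.

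The compared groups differ in both age and culture, and the fresh neonatal cells share the age of one and the direct isolation of the other. The comparisons share libraries, so the values stand side by side and are not independent. Of all autosomal genes, neoAC CellC was called higher than neoAC direct in 34.6% and lower in 31.3%, and neoAC direct was higher than AdAC direct in 34.7% and lower in 36.8%. In the same way neoAC CellC was higher than AdAC CellC in 28.6% and lower in 35.5%, and AdAC CellC was higher than AdAC direct in 38.7% and lower in 39.4%. For the glutamate list the median log2 fold change was 0.26 from AdAC direct to neoAC direct and -2.27 from neoAC direct to neoAC CellC. The GABA and glycine list gave 0.96 and -2.23, and the cholesterol synthesis list 1.51 and -1.90. Thus Slc1a2 read 6099.8 ± 132, 5676 ± 654 and 541 ± 47.5 CPM in AdAC direct, neoAC direct and neoAC CellC, and Slco1c1 read 371 ± 31.2, 389 ± 49.7 and 40.5 ± 7.396 CPM.

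Other adult genes were lower in neonatal cells of both kinds than in AdAC direct. Abcg1 read 110 ± 1.805, 10.9 ± 2.502 and 6.35 ± 0.775 CPM in the same order, Ntsr2 795 ± 80.3, 113 ± 22.3 and 61.4 ± 18.4 CPM, and Mertk 293 ± 20.98, 77.9 ± 2.72 and 9.97 ± 0.752 CPM. The fresh neonatal level of Gjb6 and of Il33 also lay between the others. For mitosis genes the medians were 3.98 from adult to fresh neonatal cells and 1.197 from those to the cultures. By way of cultured adult cells they were 5.24 from AdAC direct to AdAC CellC and -0.25 from AdAC CellC to neoAC CellC. The mitosis genes summed to 1692 ± 164.6 CPM in AdAC CellC and 1654 ± 259 CPM in neoAC CellC. These sums are of RNA. In its EdU assay of proliferation, the paper found none in cultured adult cells and a significantly higher rate in neonatal cultures. Through fresh neonatal cells the A1 list gave medians of -0.95 and 2.66, with 7 of 12 genes lower and 1 higher at the first step and 10 higher and 2 lower at the second. The motile cilium list gave -2.87 and 2.39, with 14 of 15 genes lower at the first step and Mcidas higher, and all 15 higher at the second. C3 read 39.1 ± 3.68, 1.29 ± 0.106 and 985 ± 240.4 CPM.

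**Figure D4:**
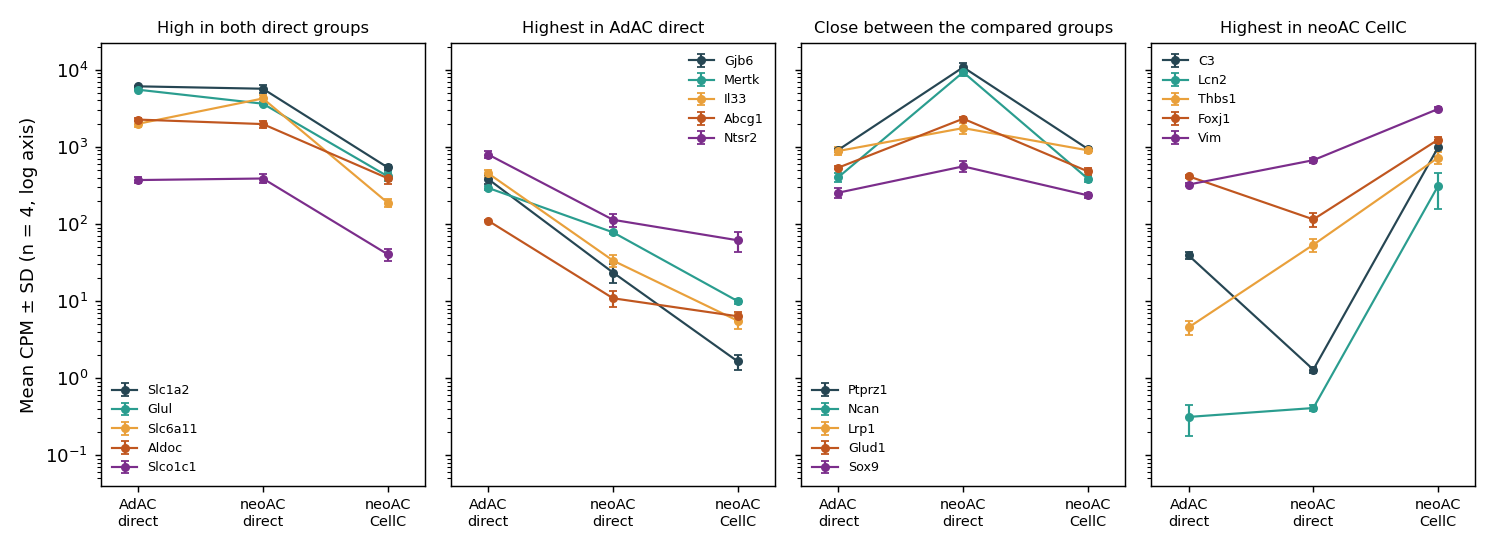
Mean level ± SD (CPM, log axis, 4 libraries) of 20 genes in AdAC direct, neoAC direct and neoAC CellC, in panels chosen after their values were seen and titled for the 3 groups drawn. Slc1a2 to Slco1c1 are high in both direct groups and low in culture, Gjb6 to Ntsr2 are lower at each step, Ptprz1 to Sox9 peak in neoAC direct, and C3 to Vim are highest in neoAC CellC.

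**Figure D5:**
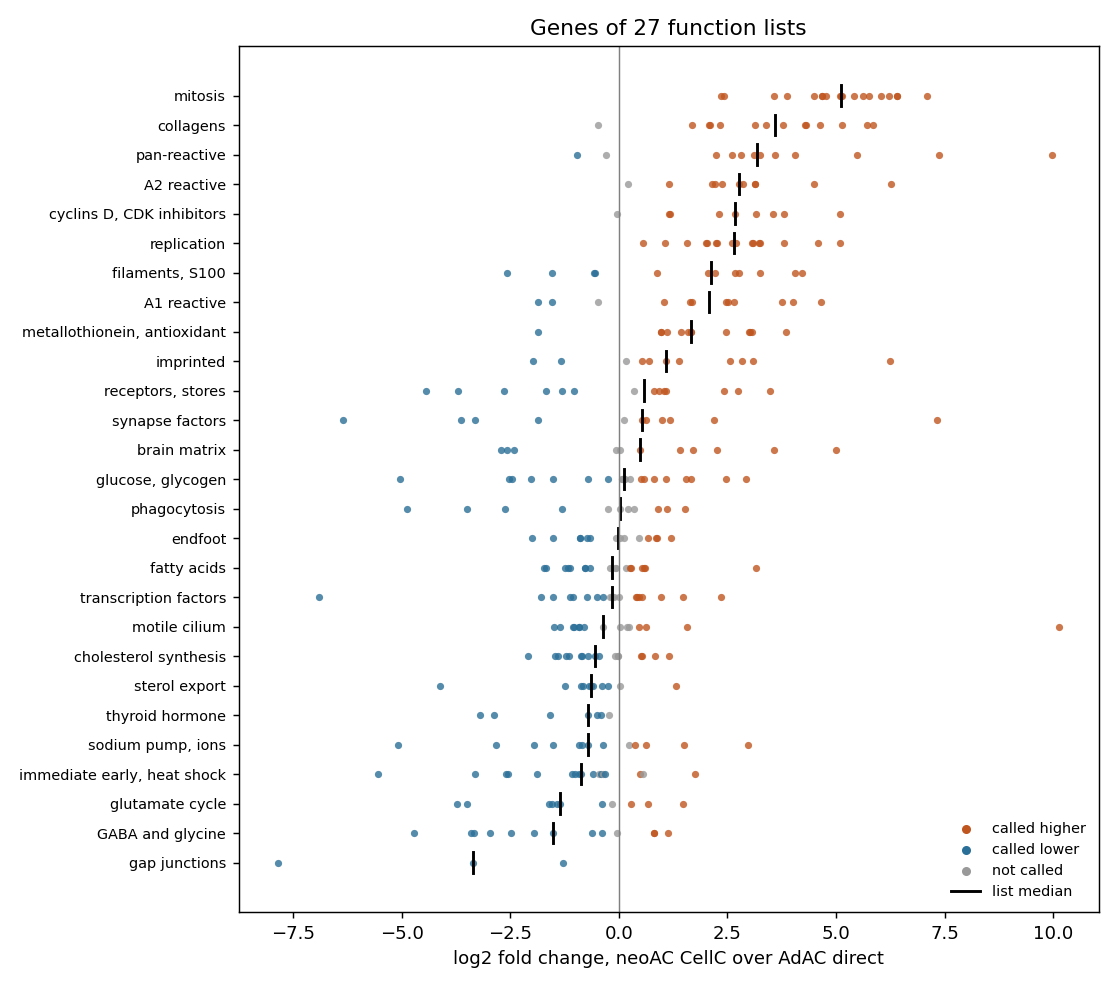
Log2 fold change of neoAC CellC over AdAC direct for every tested gene (point) of the 27 function lists, ordered by list median (black bar) and coloured by the call. All mitosis and replication genes lie to the right of 0 and all gap junction genes to the left, while the endfoot and fatty acid lists straddle it.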

How the data were processed

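RNA from all 24 libraries was sequenced after a stranded poly(A) kit. The authors deposited a table of raw counts per gene, with no normalization, and the submitters' notes name STAR 2.7.3a, featureCounts and GRCm38. The strand setting of the counting is not given in the sources used here, so a gene whose exons overlap those of a gene on the other strand is uncertain, and such overlap above 20% is stated beside the gene. Symbols, positions and exon lengths were taken by gene identifier from Gencode vM21 (GRCm38), while the study's annotation was vM12. Promoter sequences were those of RefSeq on GRCm38.p6, matched by symbol.

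From the deposited counts, genes were filtered (filterByExpr), scaled by TMM and tested by the quasi-likelihood method of edgeR 4.0.16 (R 4.3.3) in 1 fit of all 6 groups, with Benjamini-Hochberg adjustment over 19691 genes and a threshold of 0.05. Intervals are 95%. A gene was close when its interval lay within 1.5-fold. A gene with at most 3 counts in each library of a group was given a fold bound against that floor, set for the group's mean library and covering counting error only, and no fitted value. Sums and means are of TMM-scaled CPM. Libraries are separate isolations, so p-values measure the spread between isolations of pooled mice. No pair of libraries was alike within sampling noise. Genes named were the 10 protein-coding genes with the highest and the lowest log2 fold change that were called and reached 10 CPM or more in the group where they were higher, the 10 close list genes with the highest level, and members of the gene lists. Some genes under these rules are not reported here. The lists and members were chosen with earlier results of these data known. Single members were picked for their role or size after their values were seen. On simulated counts for this comparison (19366 genes), 99 of 100 genes changed 2-fold and 100 of 100 changed 4-fold were called, and 5 of 18403 unchanged genes were. The changed genes were all above a set level and went up and down in equal number. All other genes had the same mean in both groups. The simulation therefore did not test the scaling where most genes differ, or changes in weakly expressed genes. Alternatives in scaling, filter, test (DESeq2 1.42.0), libraries and threshold were run. Genes on the X and Y chromosomes were left out of the lists' counts, and those lists' 1 untested autosomal gene was Slc10a6.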

Additional observations from a re-analysis of the deposited data

Results flagged for a closer look

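Among the 418 sets of 4 library values of the genes named, 22 (5.26%) held a library whose gap to the nearest other exceeded Dixon's 95% critical value for 4 samples. Chance alone marks about 1 in 20. In neoAC CellC replicate 1 these were Car2 (48.8 CPM, others 30.7 to 31.2), Gad1 (5.18 CPM, others 6.71 to 6.95), Itgb5 (331 CPM, others 269.8 to 279.8), Itpr1 (114 CPM, others 132 to 135), Slc1a4 (161 CPM, others 115 to 122) and Snap25 (2.00 CPM, others 2.47 to 2.55). In neoAC CellC replicate 2 these were Dhcr7 (36.8 CPM, others 44.5 to 45.2) and Thbs3 (35.7 CPM, others 39.3 to 39.6). In neoAC CellC replicate 3 these were Mt3 (1735 CPM, others 1365 to 1406), Pygm (5.57 CPM, others 3.59 to 3.79) and Slc6a9 (101 CPM, others 77.1 to 80.5). In neoAC CellC replicate 4 these were Hmgcs1 (443 CPM, others 355 to 367) and Nnat (197 CPM, others 237 to 243). In AdAC direct replicate 1 this was Slc2a1 (532 CPM, others 499.6 to 503). In AdAC direct replicate 2 this was Mog (568 CPM, others 627 to 636). In AdAC direct replicate 3 these were Cdc20b (0.0297 CPM, 1 count, others 0), Hspa1a (33.9 CPM, others 19.3 to 19.8) and Hspa1b (56.2 CPM, others 30.3 to 34.1). In AdAC direct replicate 4 these were Adra1a (16.2 CPM, others 18.6 to 18.9), Grm3 (311 CPM, others 282 to 287), Kcnj8 (7.19 CPM, others 9.02 to 9.33) and Scd1 (393 CPM, others 349 to 356). None of these libraries overlapped the other group for its gene, apart from Scd1, a close gene. The 4 values of AdAC direct replicate 4 were on both sides of the others.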

How the results depend on the processing

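Counts of called genes over all genes stayed within 1.5 times under other scaling, no filter and DESeq2, with no gene called in the opposite direction under any of the alternatives. The count of lower genes moved by over 1.5 times under a stricter filter, both counts did with a fold threshold, and the count of close genes did with another bound. With at least 10 counts in all 24 libraries, 11537 autosomal genes were tested and 4387 were lower (4776 higher). Requiring over 2-fold left 3660 higher and 4173 lower. In the lists it took the lower genes from 9 to 2 for sterol export, 6 to 2 for endfeet, 8 to 4 for the sodium pump, 6 to 3 for thyroid hormone, 10 to 5 for cholesterol synthesis, 8 to 5 for fatty acids and for transcription factors, 7 to 4 for motile cilia, 4 to 2 for filaments and 12 to 7 for immediate early and heat shock genes. It took the higher genes from 7 to 2 for transcription factors, 8 to 5 for glucose, 6 to 3 for synapse factors, 6 to 1 for fatty acids, 4 to 1 for endfeet and cholesterol synthesis, 4 to 2 for the sodium pump and motile cilia, and 3 to 1 for glutamate and for GABA and glycine. Counts of many lists also moved with at least 10 counts in all libraries, where fewer genes were tested. Close genes numbered 7330 within 2-fold and 1131 within a narrower bound. Leaving out 1 library gave 6693 to 6960 higher, 6793 to 6957 lower and 3252 to 3356 close genes. Scaling by library size alone moved the median over all genes from 0.0082 to 0.1682, with 7992 higher and 6207 lower. It also raised the phagocytosis list from 3 to 5 higher, as did fitting the 8 libraries alone, and it made Axl, Kcnj10, Fxyd1, Pygb, Scd1, Spag6l and Tekt1 called higher, while Pfkm was no longer called (-0.088). Axl and Kcnj10 were also called higher with DESeq2 size factors and with scaling from autosomal genes only.

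The replicate numbers did not pair the samples, since same-numbered libraries deviated together with r of -0.05, -0.084, 0.015 and 0.096 across genes. With the replicate number as a block over the 8 libraries, 6741 genes were higher and 6911 lower, against 6846 and 7003 without the block. With the block Ttr was not called (2.49, edgeR adjusted p = 0.068), and the close genes Fxyd1 (0.24, edgeR adjusted p = 0.04996), Scd1 (0.17, 0.041) and Thrb (-0.21, 0.0425) were. With the 8 libraries alone Col16a1 was called lower (log2 fold change -0.45, edgeR adjusted p = 0.0222), and Axl, Ednrb, Fads1, Kcnj10 and Spag6l were called in the direction given, with and without the block. Leaving out 1 library changed few calls of named genes. Without neoAC CellC replicate 1, Col16a1 was called lower (-0.64). Without neoAC CellC replicate 2, Axl (0.26) and Glud1 (-0.19) were called, and without neoAC CellC replicate 3 Axl was (0.29), with 5 phagocytosis genes then higher. Without neoAC CellC replicate 4, Pfkm was not called (-0.20). The immediate early and heat shock list had 1 higher gene in place of 2 without neoAC CellC replicate 1 and without AdAC direct replicate 1, 3 or 4, and also with no filter or the 8 libraries alone.

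The sign of some genes near 0 depended on the setting, and none of these was called in either direction. With library size only the log2 fold change was 0.12 for Abat, 0.065 for Acsbg1, 0.10 for Agrn, 0.11 for Cdkn1b, 0.14 for Idi1, 0.078 for Mvk, 0.088 for Ncan, 0.011 for Sox2 and 0.045 for Sox9. With DESeq2 size factors the log2 fold change was 0.0064 for Idi1. With autosomal genes only for scaling the log2 fold change was 0.011 for Idi1. With no filter on low counts the log2 fold change was -0.00090 for Ccdc40. By the DESeq2 Wald test the log2 fold change was 0.0072 for Idi1. With the 8 libraries alone the log2 fold change was 0.0027 for Idi1. Over the fits that leave out 1 library, the log2 fold change ran from -0.084 to 0.080 for Abat, from -0.014 to 0.11 for Ccdc40, from -0.081 to 0.083 for Idi1, from -0.018 to 0.13 for Lama2, from -0.0068 to 0.099 for Lrp1, from -0.13 to 0.0083 for Mvk and from -0.13 to 0.0028 for Ncan. The cause was not tested. The depth of these libraries limits statements on genes below about 0.1 CPM, where the floor of 3 counts lies (0.0932 CPM in AdAC direct).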

Other observations

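Cultured adult astrocytes (AdAC CellC, 4 libraries) were set beside the neonatal cultures to see how adult age and culture look together. These cells lay 187.5 from neoAC CellC and 258 from AdAC direct on the distance used above. Several astrocyte genes were lower in cultured adult than in cultured neonatal cells. Slc1a2 read 49.9 ± 3.15 CPM in AdAC CellC and 541 ± 47.5 in neoAC CellC, Ntsr2 1.88 ± 0.639 and 61.4 ± 18.4, Slco1c1 8.33 ± 1.26 and 40.5 ± 7.396, and Gfap 189 ± 56.03 and 2794 ± 251. The motile cilium list had a median log2 fold change of 2.46 for neoAC CellC over AdAC CellC and the collagen list one of -1.44. Oligodendrocyte markers had a median of -6.61, so cultured adult cells still carried them.

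Neuronal and microglial genes belonged to no comparison above beyond their sums. The inhibitory neuron enzymes Gad1 and Gad2 were higher in neoAC CellC than in AdAC direct, by 1.17 and 2.27 on the log2 scale, whereas Snap25, a SNARE protein of the presynaptic membrane, was lower (-0.90). Of the microglia markers, Csf1r and Cx3cr1 were lower (-4.11 and -2.82), with levels of 0.417 ± 0.133 and 0.385 ± 0.238 CPM in culture.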
